A study of Homo sapiens with 2 samples.

Results

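Broad H3K4me3 domains are stretches of several kilobases over which peaks of this histone mark follow each other closely. They were taken from the peak list of wild-type HEC-1-B cells on chromosomes 1 to 22. Peaks separated by gaps of up to 1000 bp were merged, and the merged domains of 3000 bp or more were kept. This gave 108 broad domains among 15830 merged wild-type domains, or 0.682% of them. They spanned 0.370 Mb, which was 2.02% of the summed width of all merged domains. The wild-type width chose these domains, so every wild-type value of theirs is given as a description.

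HEC-1-B is an established line of human uterine (endometrial) adenocarcinoma cells. Chromatin immunoprecipitation with an antibody against H3K4me3, followed by sequencing (ChIP-seq), was done on wild-type cells and on cells with a knockout of ZNF143, labelled ZNF143KO, in the same culture medium and with no treatment named. Each genotype had 1 library and 1 peak list, so no difference between them has a replicate check and no test between genotypes was made. Whether the knockout cells are 1 clone is not given in the labels.

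H3K4me3 is trimethylation of lysine 4 of histone H3, deposited by the SET1 and MLL complexes around the start sites of active genes. Most promoters carry it in a narrow band. Stretches in which it runs on for several kilobases have been described at genes of cell identity and at tumour suppressors, with high and steady transcription. ZNF143 is a zinc-finger factor that binds promoters and has been linked to chromatin looping.

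The files name no genes, and a gene annotation of their build, GRCh37/hg19, was not used here, so domains are given by position counted from 1. The wild-type list held 19058 peaks on chromosomes 1 to 22 and the knockout list 18909. Each peak carries the authors' fold (column 7), the ratio of the fragment pileup at the summit to a local background rate, and a −log10 q-value (column 9). The pileup, a whole number of overlapping fragments at the summit, was recovered from columns 7 and 8. Recovered in the same way, the genome background rate in fragments per base was 1.40 for wild-type cells and 3.25 for knockout cells, a ratio of 2.31. By this measure the knockout library was the deeper. Its lowest recovered pileup was 11, against 7 in the wild type. The peak lists hold no measure of ZNF143 itself.

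The 10 widest domains measured 4048 to 5309 bp. The widest, chr10:42384279-42389587, was 5309 bp wide and was built from 6 peaks with 2035 bp of gaps between them. It also had the highest −log10 q of all broad domains, 955.28, at a fold of 7.57 and a summit pileup of 1904 fragments. The local background rate at its highest peak was 250.6, where the wild-type genome rate was 1.40. Whether reads map uniquely there was not tested. The knockout counterpart of this domain had the same 6 peaks, spanned 5317 bp and reached a pileup of 4920 at a fold of 7.41. The edges of the domain moved by 1 bp on the left and 9 bp on the right. The second, chr2:92305644-92310816, was 5173 bp wide with 5 peaks, a highest fold of 6.19 and a −log10 q of 132.21. In the knockout it was 5187 bp wide, again with 5 peaks.

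The third, chr5:107004830-107009363, behaved differently in the knockout list. In the wild type it joined peaks of 2759, 253 and 367 bp to a width of 4534 bp, with pileups of 241, 260 and 93 fragments. In the knockout the first 2 of these peaks were called, with pileups of 377 and 422 fragments, and the domain ended 1173 bp further left, at 3368 bp. The missing right-hand peak had been the weakest of the 3 in the wild type, at a fold of 1.78 and a −log10 q of 4.74.

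The next 6 in width had a knockout counterpart of similar width. On chromosome 13, chr13:111364306-111368745 was 4440 bp wide and 4469 bp in the knockout. On chromosome 19, chr19:13260651-13264970 measured 4320 and 4531 bp, and chr19:39339504-39343607 measured 4104 and 4171 bp. The latter held 5 peaks and combined a fold of 10.88 with a −log10 q of 478.49, high values among broad domains. The domain chr18:18516017-18520315 measured 4299 and 4307 bp. The domain chr16:54961810-54965967 measured 4158 and 4122 bp, and chr18:46475225-46479327 measured 4103 and 4314 bp. The tenth, chr18:3448344-3452391, was 4048 bp wide in the wild type and appeared in the knockout as 2 domains of 339 and 2739 bp.

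**Figure D1:**
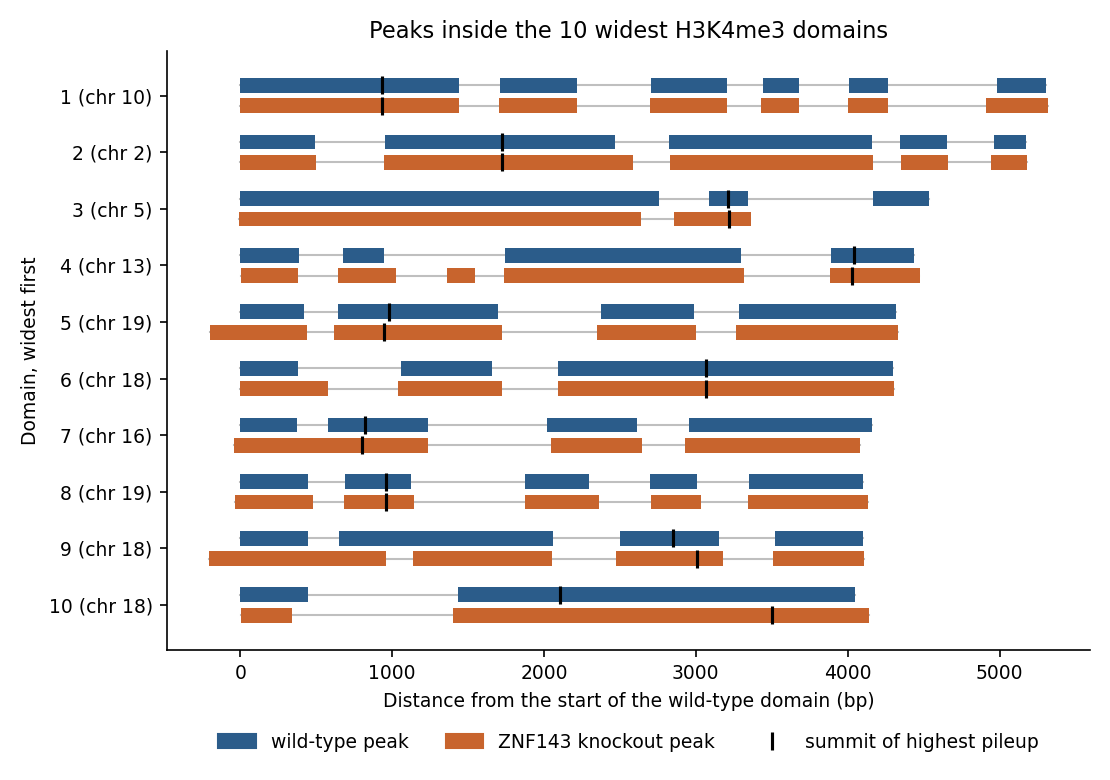
Peaks inside the 10 widest wild-type domains, widest at the top. The x axis is the distance in bp from the start of the wild-type domain, blue bars are wild-type peaks, orange bars are ZNF143 knockout peaks, grey lines join the peaks of a domain (in the tenth the knockout line spans 2 domains) and black ticks mark the summit of highest pileup. The peak layout is alike in both lists in most domains, while the third lacks its right-hand peak in the knockout.

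The median width of the 108 broad domains was 3302 bp, with a 95% order-statistic interval over domains of 3253 to 3375 bp. Domains are not replicates, and such intervals say nothing about other cultures. The quartiles lay at 3152 and 3566 bp, so most of the domains sat close to the threshold. Just inside it were chr15:99789201-99792205 at 3005 bp, chr10:27442404-27445410 at 3007 bp and chr5:141702998-141706007 at 3010 bp. Just outside were chr17:7745166-7748163 at 2998 bp, chr4:49098796-49101788 at 2993 bp and chr3:184078844-184081835 at 2992 bp. All 3 of the latter were 3000 bp or wider in the knockout, at 3619, 3598 and 3019 bp.

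Almost every broad domain was a chain of separate peaks, each peak having 1 summit. Of the 108, 3 held 1 peak, 43 held 2, 44 held 3, 12 held 4, 5 held 5 and 1 held 6, for 300 peaks in all. Single peaks made up 2.78% of broad domains, against 31.3% of the 1153 domains of 2000 bp to under 3000 bp, called medium domains from here on. The 3 single-peak domains were chr8:74205032-74208319 (3288 bp), chr3:128205969-128209138 (3170 bp) and chr6:58776272-58779436 (3165 bp). After the domain of 6 peaks, the widest of the 5 with 5 peaks were chr2:92305644-92310816 and chr19:39339504-39343607, both described above.

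The gaps within the chains were short. The 192 gaps ranged from 164 to 999 bp with a median of 367.5 bp, and 127 of them (66.1%) were 500 bp or less. Per domain the gaps summed to a median of 699 bp, and peaks covered a median of 78.1% of the width, from 48.8% to 100%. The widest single peak of a domain had a median of 1530 bp, or 45.0% of the domain's width. Medium domains were more compact, with a median of 89.8% covered and a widest peak of 1437 bp. So the widest peak was of nearly the same length in both classes, and the broad domains had more peaks beside it.

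The highest point of a broad domain lay outside the middle of the domain more often than in narrower domains. In 51 of 108 (47.2%, exact Clopper-Pearson 95% interval 37.5% to 57.1%, counting error only) the summit of highest pileup lay within 25% of the domain's width from either end. These end zones together are as long as the middle zone between them, so this share by itself shows no leaning to the ends. The summit lay in the end zones in 20.9% of all wild-type domains, in 19.5% of those made of several peaks and in 19.6% of medium domains. Among the 44 domains of 3 peaks, the highest pileup was in an outer peak in 38 and in the middle peak in 6. Outer peaks outnumber the middle peak in any such domain. In 78 of 108 domains (72.2%) the highest peak was also the widest. Neither share is given here for narrower domains, so neither is read as particular to broad ones. Within the 105 domains of several peaks, the highest pileup was a median of 1.98 times the lowest, with a range of 1.01 to 6.29.

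Broad domains were low in fold and middling in q-value. The highest fold of a domain had a median of 6.91 (range 3.09 to 16.8), against 9.34 in medium domains and 12.8 over all wild-type domains. Ranked among all wild-type domains, the median broad domain stood at percentile 14.6 of fold, and 107 of 108 lay below percentile 50. By −log10 q the median was 155.6, against 226.0 in medium domains and 177.8 over all domains, and the median percentile was 45.6. By summit pileup the order turned against all domains, with a median of 339 fragments where all domains had 242. Against medium domains it did not turn, as their median was 387. The median percentile of the broad domains by pileup was 65.2.

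Fold and pileup differ by the local background rate that the peak caller divides by. That rate, at the highest peak of a domain, was a median of 35.3 times the genome rate in broad domains. It was 28.2 times in medium domains and 11.1 times over all domains. Whether the fragments of a wide domain themselves enter and raise this rate was not tested. The low fold is therefore not read as a trait apart from the width that chose the domains. The single peaks inside broad domains were also smaller than the average peak, at a median of 755 bp where all wild-type peaks had 888 bp, and a median fold of 4.73 where all had 11.5.

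**Figure D2:**
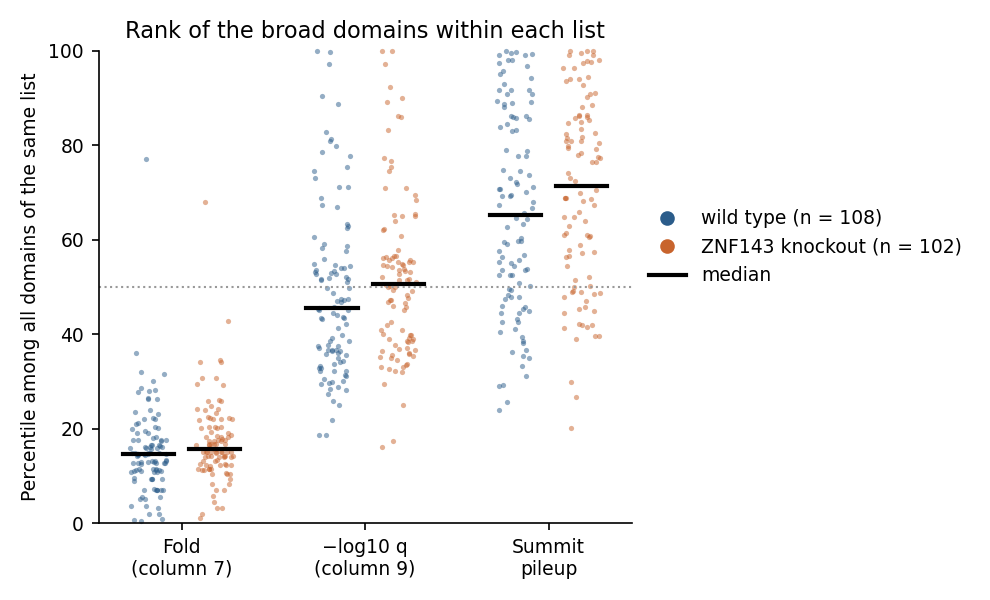
Percentile of each broad domain among all domains of its own list (y axis, in percent) by highest fold, by highest −log10 q and by highest summit pileup. Points are domains, blue for the 108 in the wild type and orange for the 102 one-to-one counterparts in the ZNF143 knockout, and black bars are medians. The wild-type medians lie at 14.6, 45.6 and 65.2 and the knockout medians at 15.8, 50.7 and 71.4.

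The domain that departed from this pattern was chr19:27736284-27739640, the highest of all broad domains in fold at 16.79 and the only one above percentile 50, at percentile 77.2. Its 3 peaks were unlike each other: a middle peak of 1480 bp with a pileup of 855 fragments stood between peaks of 200 and 193 bp with 338 and 136 fragments. In the knockout the same 3 peaks had pileups of 1211, 2455 and 513. Its −log10 q of 702.06 was second to that of the widest domain, and chr19:39339504-39343607 came next. In fold, chr19:39339504-39343607 at 10.88 and chr7:27152714-27155860 at 10.33 followed it.

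The lowest folds were 3.09 at chr7:5459700-5463375, 3.25 at chr16:46403562-46407054 and 3.37 at chr6:58776272-58779436. These domains were not low in pileup. Their pileups were 362, 270 and 670 fragments, and the last stood at percentile 99.0 of pileup. The local background rates at these summits were 116.5, 82.4 and 198.3. Whether reads map uniquely at these domains was not tested. The lowest −log10 q values were 20.37 at chr5:124081875-124085069, 20.38 at chr11:63684352-63687684 and 28.32 at chr2:89866859-89870113, where the pileups were 74, 47 and 55 fragments. These 3 were domains of low pileup, at percentiles 29.3, 24.0 and 25.7.

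All 22 chromosomes carried at least 1 broad domain. Chromosome 19 had 11, chromosome 1 had 10, and chromosomes 10 and 17 had 9 each. Spread in proportion to all merged domains, these chromosomes would hold 7.54, 11.3, 4.73 and 6.79. Chromosomes 11 and 12 had 2 each, where 5.57 would be in proportion for either, and chromosomes 20, 21 and 22 had 1 each. The share of domains that were broad ran from 0.233% on chromosome 20 to 1.30% on chromosome 10. The exact 95% interval of every chromosome's share included the 0.682% of the whole list.

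**Figure D3:**
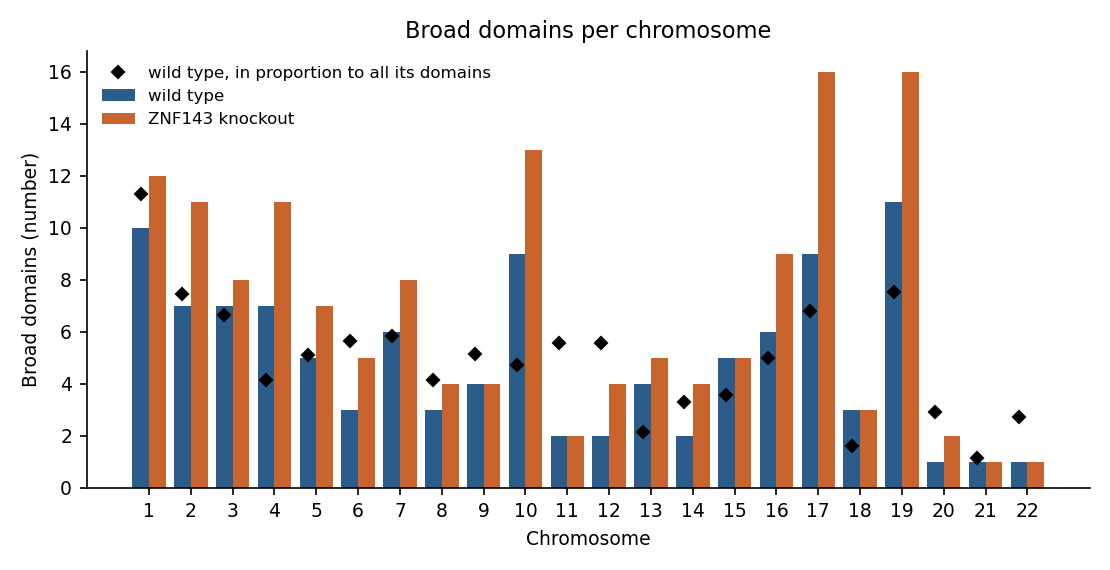
Number of broad domains (y axis) on chromosomes 1 to 22 (x axis) in the wild-type list (blue bars) and in the ZNF143 knockout list (orange bars). Black diamonds give the wild-type number in proportion to all merged wild-type domains of the chromosome. Chromosomes 10 and 19 stand above their diamond, chromosomes 11 and 12 below it, and no chromosome has fewer broad domains in the knockout than in the wild type.

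Some broad domains lay close together. The distance from a broad domain to the nearest other domain of any width had a median of 19329 bp, against 31360 bp over all domains and 40325 bp for medium domains. The closest members of the set were a pair on chromosome 1 (starts at 149811998 and 149821672) with 6254 bp between them. A pair on chromosome 2 (92305644 and 92317935) was 7118 bp apart, and a pair on chromosome 16 (46403562 and 46432261) was 25206 bp apart.

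A further feature of position was seen only after the data had been examined. Chromosomes 1 to 22 had 54 stretches of 3 Mb or more without a peak in either list. These may be assembly gaps, centromeres or regions poor in active genes. Within 1 Mb of such a stretch lay 15 of 108 broad domains (13.9%, 95% interval 7.99% to 21.9%), against 3.96% of all domains. They included 4 of the 6 widest, on chromosomes 10, 2, 5 and 18. The widest also had the highest −log10 q of all broad domains. Also among the 15 were chr19:27736284-27739640, with the highest fold, and chr16:46403562-46407054 and chr6:58776272-58779436, with low folds. The domain of lowest fold, chr7:5459700-5463375, was not among them. Whether reads map uniquely at any of the 15 was not tested, so their widths and pileups may not all be H3K4me3 signal.

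All 108 broad domains overlapped a knockout domain by at least 1 bp (100%, exact 95% interval 96.6% to 100%). The share over all wild-type domains was 94.5%, and among medium domains it was also complete, at 1153 of 1153. Of the 108, 102 formed one-to-one pairs with a single knockout domain, 5 were met by 2 knockout domains, and 1 was joined to a neighbour. The joined domain, chr2:89866859-89870113, grew from 3255 bp to a knockout domain of 5529 bp, the widest of the knockout list on chromosomes 1 to 22.

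The counterpart was itself 3000 bp or wider for 101 of 108 (93.5%, 87.1% to 97.4%). Over all wild-type domains 1.09% overlapped so wide a knockout domain, and among medium domains 25 of 1153 did (2.17%). Of the 7 exceptions, 2 fell just under the threshold: chr10:27442404-27445410 went from 3007 to 2986 bp and chr19:45907633-45910644 from 3012 to 2947 bp. The other 5 were the domains met by 2 knockout domains.

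In each of these 5, the knockout peaks left a gap of more than 1000 bp inside the domain. At chr7:150754553-150757815 and chr18:3448344-3452391 the same gap widened, from 905 to 1075 bp and from 987 to 1062 bp. At chr4:49093628-49097013, chr8:143531086-143534698 and chr11:63684352-63687684 a small wild-type peak inside the domain had no knockout peak. The folds of these lost peaks were 2.92, 2.26 and 2.76. The widest inner gap there was 800, 575 and 976 bp in the wild type. The knockout gap, which took in the place of the lost peak, was 1421, 1061 and 1609 bp. From the outer edge of the first knockout domain to that of the second, all 5 still spanned 3000 bp or more.

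The width of the 102 pairs changed little. The knockout over wild-type width had a median of 1.017 (order-statistic interval 1.010 to 1.023). The ratios ranged from 0.743 to 1.19. The median ratio was 1.025 in medium domains and 1.059 over all pairs, so the proportion was smaller in the broad domains. The wild-type width, which chose them, is the denominator of this ratio. In bp the median difference was 59 in broad and 58 in medium domains. In the 128 pairs chosen by a knockout width of 3000 bp or more it was 1.024.

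The knockout domain was wider in 83 of 102 pairs (81.4%, 72.4% to 88.4%), where 82.4% of all pairs were wider. It was narrower in 18 (all pairs, 17.3%) and equal in 1. No pair differed by 1.5-fold or more, where 7.56% of all pairs were that much wider and 1.72% that much narrower. Past 1.1-fold, 5 were wider (4.90%, against 34.2% of all pairs) and 4 narrower (3.92%, against 6.04%). Of the medium pairs, 6.61% were wider by more than 1.1-fold and 3.39% narrower, so the broad domains were close to the class next in width.

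**Figure D4:**
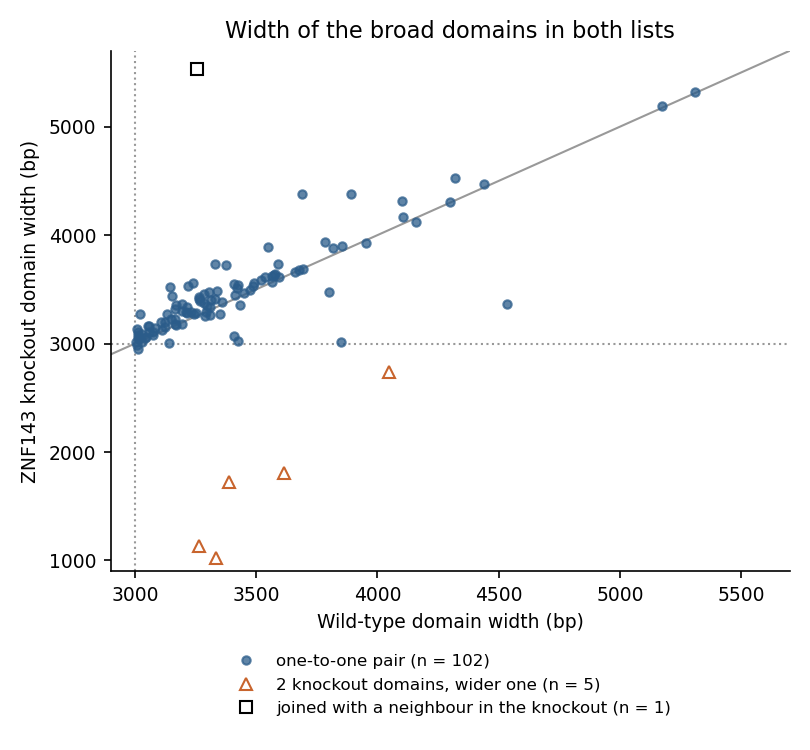
Width of each wild-type broad domain (x axis, bp) against the width of its ZNF143 knockout counterpart (y axis, bp). Blue circles are the 102 one-to-one pairs, orange triangles the 5 domains met by 2 knockout domains (the wider is plotted), the open square is the domain joined to a neighbour, the solid line marks equal widths and dotted lines 3000 bp. Most circles lie on or just above the line of equal width, within a ratio of 0.743 to 1.19.

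The 5 domains that widened most did so mainly at one edge. The largest ratio was 1.19, at chr5:90676267-90679953, which went from 3687 to 4379 bp by 690 bp on its left side and 2 bp on its right. Next came chr15:69110061-69113951, from 3891 to 4379 bp, where wild-type peaks of 3163 and 553 bp became 1 knockout peak. Its highest summit moved by 2781 bp, from the left end to the right, although the 2 wild-type peaks had nearly equal pileups of 294 and 290 fragments. The domains chr4:15003210-15006538 (3329 to 3737 bp), chr3:107241823-107244968 (3146 to 3526 bp) and chr9:2014681-2018055 (3375 to 3722 bp) followed.

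The 5 that narrowed most included the third widest domain, with the smallest ratio of 0.743. The domain chr4:49641132-49644982 went from 3851 to 3013 bp and from 5 peaks to 4, losing 851 bp on its right side. The domain chr9:14312664-14316086 went from 3423 to 3026 bp, with both edges inward by 253 and 144 bp. The domain chr10:63660169-63663575 went from 3407 to 3073 bp and chr1:120836208-120840009 from 3802 to 3471 bp, each mostly by its left edge. In 4 of these 5 the width was lost mainly at one end.

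Inside the pairs, peaks took up more of the domain in the knockout. The summed width went from 348674 to 354309 bp, the summed covered length from 271756 to 288596 bp, and the summed gaps from 76918 to 65713 bp. The covered length was larger in 89 of 102 pairs (87.3%, against 83.7% of all pairs), with a median ratio of 1.047. The same median ratio was found in medium domains. Less gap was found in 79 pairs (77.5%), against 16.9% of all pairs and 85.9% of those with several wild-type peaks. The knockout library was the deeper by its background rate. The part of depth in these widths was not tested.

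The number of peaks fell from 280 to 266 over the pairs. It was lower in 23 pairs (22.5%) and higher in 10, and equal in 69. Over all pairs 7.42% had fewer peaks in the knockout and 3.08% more, but 81.2% of all wild-type domains have 1 peak and cannot lose any. Of all pairs with several wild-type peaks, 37.7% had fewer and 1.37% more. Of the 41 pairs of 3 wild-type peaks, 14 had 2 peaks in the knockout.

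The main summit mostly stayed in place. Its median shift was 20.5 bp, and in 73 of 102 pairs it was 100 bp or less. It exceeded 500 bp in 17 pairs (16.7%, 10.0% to 25.3%), against 2.55% of all pairs, 6.74% of those with several wild-type peaks and 8.53% of medium domains. The width of a domain, which chose the members, limits how far its summit can move, so nothing particular to broad domains is read from these shares. The largest were 2781 bp at chr15:69110061-69113951 and 2762 bp at chr9:2014681-2018055.

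Ranks within the list were similar in the knockout. In the knockout the median percentile of the 102 counterparts was 15.8 by fold, 50.7 by −log10 q and 71.4 by pileup. The fold percentile was higher in the knockout in the median pair by 2.02 points, against 0.672 points over all pairs. It was lower in 22 of 102 pairs (21.6%), where 44.7% of all pairs were lower, and in 35.2% of medium domains. The −log10 q values themselves were larger in the knockout, with a median of 312.2, and the pileups too, with a median of 666 fragments. Neither is scaled between the libraries.

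To set pileups side by side, the knockout pileup of each pair was divided by the wild-type one, and the log2 ratio was centred by subtracting the median of all 14856 pairs, 0.89. The broad domains had a median centred log2 ratio of 0.04 (−0.03 to 0.11) and a range of −3.02 to 1.06. The ratio was below 0 in 46 of 102 (45.1%), where it is below 0 in 50% of all pairs by construction. Each domain was also set against up to 20 neighbouring pairs, 10 on each side. A difference of more than 0.5 in either direction was found in 10 of 102 (9.80%), against 15.4% of all pairs and 3.05% of medium domains.

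**Figure D5:**
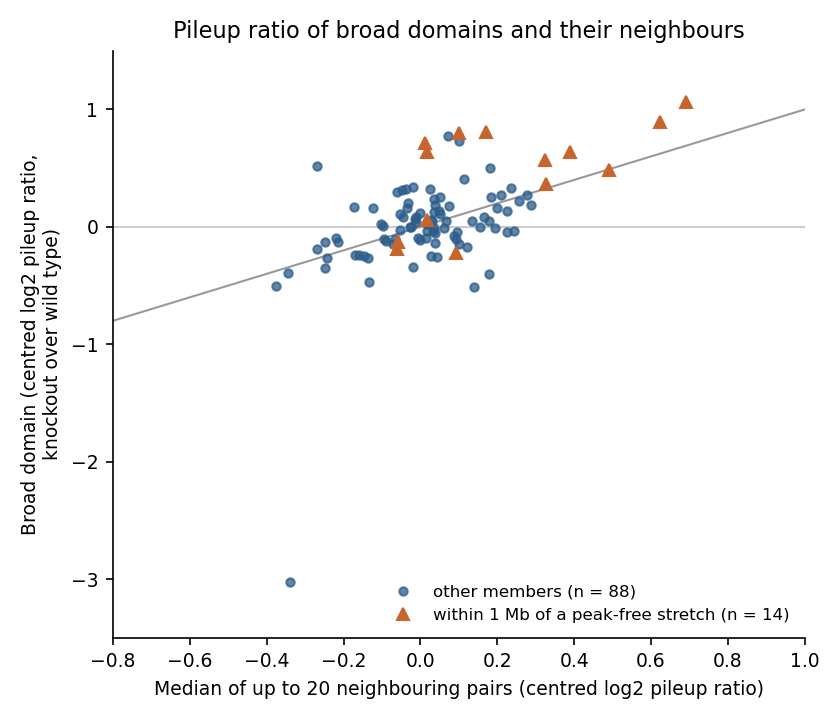
Centred log2 ratio of ZNF143 knockout to wild-type summit pileup of each broad domain (y axis) against the median of its neighbouring pairs (x axis, same unit). Orange triangles are the 14 pairs within 1 Mb of a peak-free stretch, blue circles the other 88, and the solid diagonal marks equality with the neighbours. One circle, at −3.02, lies far below all others.

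A difference of more than 1 was found in 1 of 102 (0.980%), against 4.39% of all pairs. At chr9:14312664-14316086 the highest pileup went from 228 fragments to 52 in the knockout, a centred log2 ratio of −3.02, while its neighbours had a median of −0.34. Its 3 wild-type peaks had pileups of 228, 109 and 124 fragments and folds of 5.86, 2.82 and 3.21. The 4 knockout peaks in the same place had pileups of 43, 38, 52 and 32 fragments and folds of 4.31, 3.84, 5.21 and 3.24. At the highest peak the local background rate was 9.18 in the knockout against 38.1 in the wild type, so it was lower along with the pileup. The fold, as the ratio of the 2, was 5.21 against 5.86. Whether the domain's own fragments enter that rate was not tested, so the fold is not read as kept enrichment. The next domain to the right, chr9:14322088-14323154, was also low, with 237 and 135 fragments and a centred log2 ratio of −1.70, whereas the other 5 pairs around them lay between −0.61 and −0.30. This difference rests on 1 library of each genotype.

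The other 9 domains past 0.5 lay nearer their neighbours, and 7 of them were above. The difference from the neighbours was 0.79 at chr9:2014681-2018055, 0.70 at chr6:58776272-58779436 and 0.70 at chr18:18516017-18520315. Below the neighbours were chr17:36102352-36105898 at −0.65 and chr16:85586880-85590830 at −0.57.

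The domains near peak-free stretches were mostly above 0 in this measure. Their 14 pairs had a median centred log2 ratio of 0.60 (−0.13 to 0.81), and 11 of the 14 were above 0. The 88 other broad pairs had a median of 0.01, which lies inside that interval, and the 551 pairs of narrower domains near such stretches 0.04. The highest was 1.06, at chr16:46432261-46435545, followed by 0.89 at chr16:46403562-46407054. The third widest domain, on chromosome 5, was among the 3 below 0, at −0.19. Without the 15 domains near stretches the median width ratio was 1.018, so the width result was the same.

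Seen from the knockout, the set was larger. The knockout list held 151 broad domains (0.928% of 16267), with a median width of 3358 bp and a range of 3000 to 5529 bp. Of these, 150 overlapped a wild-type domain (91.7% of all knockout domains did), and 101 (66.9%, 58.8% to 74.3%) overlapped one of 3000 bp or more. So 93.5% of the wild-type set and 66.9% of the knockout set were broad in the other list. Single peaks numbered 12 among the 151.

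The other 50 were broad in the knockout alone, and in 49 of the 50 the wild type had a narrower domain or several separate ones. For 28 of them a single wild-type domain was found, with a median width of 2870 bp, and in 17 of the 28 it was 2800 bp or wider. For 21 the wild type had several domains, with splitting gaps of 1010 to 3243 bp and a median of 1363 bp. At chr2:162135123-162138483, 3361 bp wide, the wild type had none.

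The widest of the 50 was chr18:107252-112639 at 5388 bp, over wild-type domains of 1115, 512 and 411 bp. The domain chr20:57463278-57467899, 4622 bp wide, met wild-type domains of 1074 and 1799 bp. The domain chr7:56438287-56442344, 4058 bp wide, met 1 wild-type domain of 768 bp, the narrowest such counterpart. The domains chr8:43820970-43825013 (4044 bp, over 1618 and 249 bp) and chr16:33237361-33241202 (3842 bp, over 215 and 563 bp) followed.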

How the data were processed

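H3K4me3 ChIP-seq peak lists of wild-type and ZNF143KO HEC-1-B cells, 1 library each, were used. The submitters' processing notes name Bowtie2, SAMtools 1.12, MACS2, deepTools and the builds GRCh37 and hg19, without roles or settings. The control library is not given in the sources used here. Both lists have the 10-column narrowPeak layout with separate name prefixes, which points to one peak call by the authors for each library. Column 7, as deposited, was read as a fold or ratio: summit pileup over a local background, with 1 added to both. Columns 8 and 9, as deposited, were read as −log10 of p-values and of q-values. The deposited score in column 5 equalled 10 times column 9 without decimals in 100% of peaks. The authors kept q-values of up to 0.0349 (wild type) and 0.0453 (knockout).

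Pileup and local rate were solved from columns 7 and 8 as the whole number whose Poisson tail gives the p-value. The p column was matched to a relative error of at most 1.76e-05 (wild type) and 2.67e-05 (knockout). In simulated lists rounded like the files, 100% of pileups were recovered. The genome background rate is the lowest rate in a list. Total read counts were not used here. The score served for that check alone, and 1509 wild-type and 1600 knockout peaks outside chromosomes 1 to 22 were left out.

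Peaks of both lists were merged across gaps of up to 1000 bp. Domains sharing at least 1 bp were linked, and domains with exactly 1 partner each way formed one-to-one pairs. Percentiles are within a list. Shares carry exact Clopper-Pearson 95% intervals and medians carry order-statistic intervals. Both cover counting over domains only. Named by rule were the 10 widest domains, the 5 largest and 5 smallest width ratios, the 3 domains with most peaks, the 3 highest and 3 lowest in columns 7 and 9, the 3 on each side of the threshold, and the 5 widest knockout domains under 3000 bp in the wild type. Domains named for pileup ratio, position or splitting were picked with their values in view. The members and lists were chosen with earlier results of these data known. Alternatives varied the gap, minimum width, q-value, overlap, chromosomes and measure of width. Software was matplotlib 3.10.9, scipy 1.17.1, pandas 2.3.3 and numpy 2.4.6 under Python 3.11.15.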

Additional observations from a re-analysis of the deposited data

Results flagged for a closer look

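Outside chromosomes 1 to 22, which the comparisons do not use, the ZNF143 knockout list had 8 domains of 3000 bp or more on unplaced or unlocalized sequence, the widest of 6887 bp. The wild-type list had 3 there, the widest of 3971 bp. These sequences have no assigned position on a chromosome, and the wild-type library served as the control level.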

How the results depend on the processing

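No paired analysis was possible because neither genotype had a second library, and no replicate could be left out. Of 97 alternative values for 10 results, 57 stayed within the limit set for a change, 39 moved and 1 changed direction. The number of broad domains followed the definition. In the wild type it was 4 with no gap joined or with single peaks alone, 54 with gaps of up to 500 bp and 238 with gaps of up to 2000 bp. It was 1261, 10 and 2 at a minimum width of 2000, 4000 and 5000 bp, and 24 by covered length. In the knockout the same settings gave 13, 13, 83, 288, 1642, 15, 4 and 47, each more than in the wild type. The median width was 3167.5 bp with no gap joined, 3526.5 bp with gaps of up to 2000 bp, and 2249, 4309.5 and 5241 bp at the 3 minimum widths. The median width ratio changed direction to 0.998 with no gap joined, where 2 pairs were left. It was 1.024, 1.003 and 1.002 at the 3 minimum widths and 1.052 by covered length. The share of wild-type broad domains also broad in the knockout was 75% with no gap joined, 98.1% with gaps of up to 500 bp, and 80% and 100% at 4000 and 5000 bp. From the knockout side it was 23.1% with no gap joined, 76.7% with gaps of up to 2000 bp, and 53.3% and 50% at 4000 and 5000 bp. The shared share was 96.3% with a reciprocal overlap of 50%. The median fold percentile was 6.27 by the median peak of a domain, and the rank by column 9 was 45.6. The median number of peaks was 3, and 1, 4 and 5.5 with no gap joined and at 4000 and 5000 bp. Leaving out domains near peak-free stretches was chosen after the data were seen and moved none of the results it was run on. Scaling the knockout pileup to the wild-type floor, also chosen then, was no test: it changed no value, and every peak of the 102 counterparts lay above that floor. The total depth of either library was not known, so widths are not scaled for depth.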
